A study of Mus musculus with 4 samples.

Results

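CC chemokine ligands are small secreted proteins with a pair of adjacent cysteines near the amino end, and they guide leukocytes by binding G protein-coupled receptors of the CCR group. Splenic dendritic cells (DC) use them to draw T cells, NK cells and monocytes toward sites of antigen presentation, and engagement of Toll-like receptors is known to change which of them a DC makes. The 9 genes described here were Ccl2, Ccl3, Ccl4, Ccl5, Ccl6, Ccl8, Ccl9, Ccl17 and Ccl22, out of 17097 genes measured. They were picked by name: every probe set whose annotation holds only the symbol of a listed ligand was taken. This gave 10 probe sets, with 1 for each of 8 genes and 2 for Ccl9, and no probe set listed a ligand together with another gene.

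DC were isolated from the spleens of WT and MARCO-/- mice, both on the background that the labels write as C56BL/6, by positive selection on CD11c, and were cultured overnight with PBS (the buffer control) or with LPS, the bacterial ligand of TLR4, at 100 ng/ml. MARCO is a scavenger receptor, and the question behind the design is how its absence alters resting and TLR4-activated DC. There were 4 arrays, 1 for WT DC with PBS, 1 for WT DC with LPS and the same pair for MARCO-/- DC. The mice were 8 to 12 weeks old, each pool held the DC of 5 to 6 animals, and the WT mice were bought from a supplier as age- and sex-matched controls, so the genotypes were not described as littermates. With 1 array per condition there is no replicate and no test: a difference is described by its size, and 2-fold, the threshold of the study's methods, serves as the only limit. Whether a ratio is larger than the spread between replicate pools cannot be told from these arrays.

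All values are RMA intensities on a linear scale, log2 ratios were taken between arrays, and a gene with several probe sets is given by its brightest. An intensity has meaning only relative to the same probe set on another array. The median of all intensities was 4.87, and values close to it are treated as background. The MHC class II gene H2-Aa was between 2035 and 5231 on the 4 arrays, while Itgax, which encodes CD11c, was 548 and 621 with PBS but 12.9 and 16.4 with LPS. Transcripts of other spleen cells were also present. The summed intensity of 11 macrophage markers was 1846 with PBS and 415.6 with LPS in WT, and 2956 with PBS and 595.7 with LPS in MARCO-/-. Bright genes carry such sums: Spic, a factor of red pulp macrophages, gave 247 of the WT and 434 of the MARCO-/- sum with LPS, and while the sum was higher in MARCO-/- the median log2 ratio of the 11 markers over WT with LPS was -0.36. The summed intensity of 6 markers of monocytes and neutrophils was 2548, 533, 2441 and 630.1 (WT and then MARCO-/-, PBS before LPS), of which the lysozyme gene Lyz2 gave 468 and 588 with LPS, and their median log2 ratio of MARCO-/- over WT with LPS was -0.66. That of 9 markers of NK and T cells was 1340, 486, 942 and 257. The 4 measured B cell markers summed to 1389, 1926, 1100 and 1433, with none past 2-fold in any comparison, and 7 markers of DC summed to 12100, 5366, 12650 and 4735. The 3 measured erythroid markers summed to 4404, 3985, 6391 and 6829, nearly all of it Hba-a1. In MARCO-/- over WT, Slc4a1, the erythrocyte anion exchanger, was 5.74-fold higher with PBS, and Alas2, an enzyme of haem synthesis, was 2.17-fold higher with PBS and 3.52-fold higher with LPS. In whole preparations such as these, fewer cells of a type and less RNA per cell cannot be told apart.

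LPS moved the ligands in opposite directions. In WT, 4 of the 9 ligands (Ccl5, Ccl8, Ccl17 and Ccl22) were at least 2-fold higher with LPS than with PBS, where 6.20% of all genes were, and 3 (Ccl3, Ccl6 and Ccl9) were at least 2-fold lower, where 8.31% of all genes were. In MARCO-/- 3 ligands (Ccl5, Ccl17 and Ccl22) were higher, against 6.32% of all genes, and 5 (Ccl3, Ccl4, Ccl6, Ccl8 and Ccl9) were lower, against 5.98%. Of genes with a value above the median of all intensities, as all 9 ligands had, 9.62% were higher and 12.9% lower in WT. In MARCO-/- these shares were 9.86% and 9.33%. The median log2 ratio of the ligands was 0.09 in WT and -1.02 in MARCO-/-, beside 0.05 and 0.00 over all genes. Ccl5, Ccl17 and Ccl22 were thus past 2-fold upward in both genotypes, as were 3.89% of all genes, and Ccl3, Ccl6 and Ccl9 downward in both, as were 4.55%.

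Between genotypes fewer ligands differed. With PBS, Ccl8 in MARCO-/- exceeded its WT value by at least 2-fold (0.760% of all genes were) and Ccl22 was at least 2-fold lower (0.287% were), while the other 7 were under 2-fold. With LPS none was at least 2-fold higher (2.09% of all genes were) and 3, Ccl6, Ccl8 and Ccl17, were at least 2-fold lower (1.31% were). After quantile normalization these last shares of all genes were 1.36% higher and 1.54% lower, and the same 3 ligands were lower. Of genes with a value above the median of all intensities, 1.19% were higher and 0.447% lower with PBS. With LPS 3.26% of them were higher and 2.01% lower. The size of the LPS response itself was compared as the log2 ratio in MARCO-/- minus that in WT. It was at least 1 for Ccl22 (3.40% of all genes were at or above 1) and at most -1 for Ccl6 and Ccl8 (2.53% of all genes were at or below -1).

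**Figure D1:**
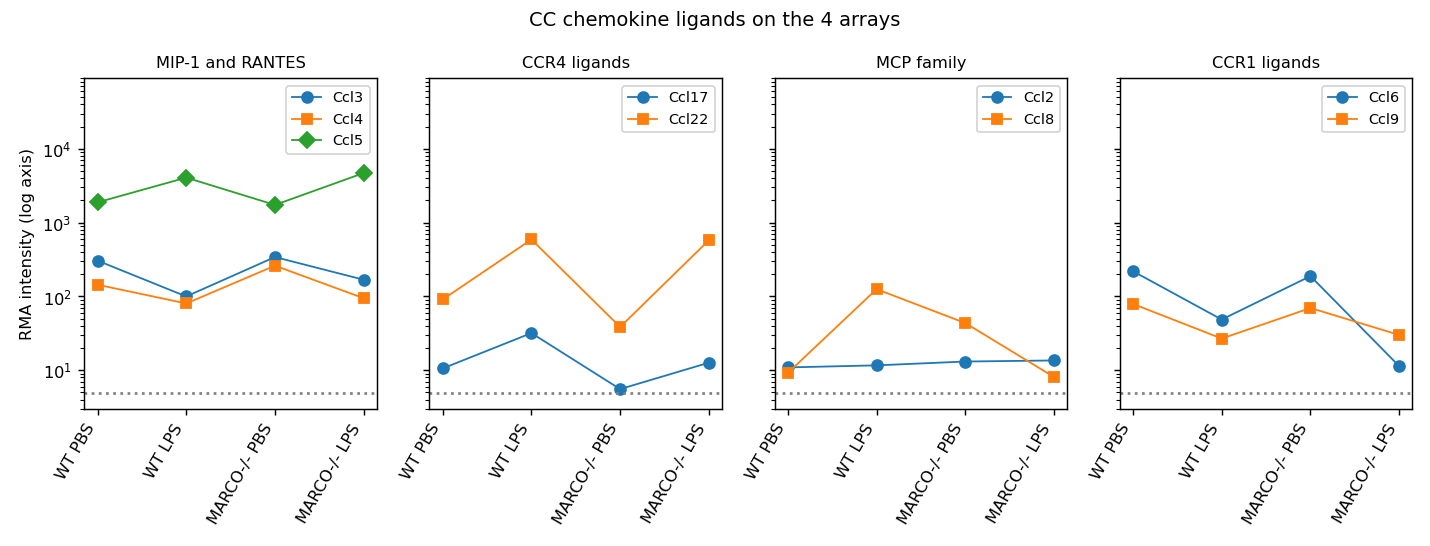
RMA intensity (log axis) of the 9 CC chemokine ligands on the 4 arrays, grouped by receptor or protein family; each point is 1 array, lines join the points of a gene, and the dotted line is the median of all intensities (4.87). Ccl22 had 592 and 577 on the LPS arrays, Ccl8 had 126 with LPS in WT and 8.11 in MARCO-/-, and Ccl2 stayed between 10.9 and 13.6.

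Ccl3, Ccl4 and Ccl5 encode MIP-1 alpha, MIP-1 beta and RANTES, which attract T cells, NK cells and monocytes. Ccl5 (probe set 1418126_PM_at) had an intensity of 1884 in WT PBS, 4079 in WT LPS, 1740 in MARCO-/- PBS and 4704 in MARCO-/- LPS. Both LPS arrays were above both PBS arrays, by 2.17-fold in WT (log2 ratio 1.11) and by 2.70-fold in MARCO-/- (1.44). Between genotypes Ccl5 was 1.08-fold lower in MARCO-/- with PBS and 1.15-fold higher with LPS. NK and T cells also make Ccl5. Of the 9 markers of these cells 5 (Ncr1, Klrb1c, Gzma, Nkg7 and Cd8a) were at least 2-fold lower with LPS in WT. In MARCO-/- 6 were, these and Prf1, while only Gzmb, a granzyme, was at least 2-fold higher, in WT. The T cell genes Cd3e and Cd3d were under 2-fold with LPS in both genotypes. Cd3d had 56.0 in WT PBS, 69.7 in WT LPS, 56.3 in MARCO-/- PBS and 69.1 in MARCO-/- LPS. Cd3e had 12.7, 13.1, 14.8 and 12.2 in the same order. Between genotypes Ncr1, an NK cell receptor, was at least 2-fold higher in MARCO-/- and the granzymes Gzma and Gzmb at least 2-fold lower, each in both conditions. Their part in the Ccl5 values was not tested.

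Ccl3 (1419561_PM_at) went the other way, with 306 in WT PBS, 100.02 in WT LPS, 342 in MARCO-/- PBS and 169 in MARCO-/- LPS. Both LPS arrays were below both PBS arrays, by 3.06-fold in WT (log2 ratio -1.61) and by 2.03-fold in MARCO-/- (-1.02). The ratio in MARCO-/- lies at the threshold: it was 1.96-fold when arrays were centred on their medians and 1.98-fold when 8 intensity units were added before log2. Ccl4 (1421578_PM_at) had 144 in WT PBS, 80.4 in WT LPS, 261 in MARCO-/- PBS and 94.7 in MARCO-/- LPS. It was also lowest on the LPS arrays, by 1.79-fold in WT (-0.84) and by 2.76-fold in MARCO-/- (-1.47), and its highest value was that of resting MARCO-/- DC, 1.81-fold above WT PBS. For Ccl3 the MARCO-/- value was 1.69-fold above WT on the LPS arrays and 1.12-fold above it on the PBS arrays, so both genes were on the higher side in MARCO-/- in both conditions without reaching 2-fold. The pair are neighbours in the genome (GRCm38.p6: Ccl3 chr11:83647843-83649378, Ccl4 chr11:83648624-83664683, annotated spans that overlap).

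Ccl22 and Ccl17 encode MDC and TARC, the ligands of CCR4, which attract CCR4-bearing T cells such as Th2 and regulatory T cells and are typical products of maturing DC. Both genes lie on chromosome 8, with Ccl22 at chr8:94745684-94751388 and Ccl17 at chr8:94809380-94812038. Ccl22 (1417925_PM_at) had 91.1 in WT PBS, 592 in WT LPS, 38.6 in MARCO-/- PBS and 577 in MARCO-/- LPS. The LPS arrays were 1.03-fold apart, whereas with PBS MARCO-/- was 2.36-fold below WT (log2 ratio -1.24). The fold of LPS over PBS was accordingly 6.50 in WT (2.70) and 14.96 in MARCO-/- (3.90), a difference of 1.20 on the log2 scale that 291 of the 17097 genes exceeded. The larger fold in MARCO-/- thus went with a lower PBS value, not with a higher LPS value.

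Ccl17 (1419413_PM_at) had 10.6 in WT PBS, 31.9 in WT LPS, 5.56 in MARCO-/- PBS and 12.7 in MARCO-/- LPS. It was higher with LPS by 3.02-fold in WT (log2 ratio 1.59) and by 2.28-fold in MARCO-/- (1.19), and lower in MARCO-/- than in WT by 1.91-fold with PBS (-0.93) and by 2.52-fold with LPS (-1.33). On the PBS arrays both CCR4 ligands had their lower value in MARCO-/-, past 2-fold for Ccl22 only, and on the LPS arrays only Ccl17 was past 2-fold below WT. These are low intensities, and the MARCO-/- PBS value was 1.14 times the median of all intensities. With 8 intensity units added before log2 the LPS ratio in MARCO-/- was 1.52-fold and the difference between genotypes with LPS 1.93-fold, both under 2-fold.

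The sequences around the starts of Ccl22 and Ccl17 are shown because these neighbouring genes were higher with LPS together. They run from 100 bases before to 50 bases after the annotated start (RefSeq, GRCm38.p6, plus strand), at chr8:94745584-94745733 for Ccl22 and at chr8:94810353-94810502 for Ccl17, where the start used by the promoter table lies inside the annotated span of the gene. They have no capitals, since none of the 4 motifs described below was found in them and no run of 9 or more bases was shared between their 300-base windows.
Ccl22: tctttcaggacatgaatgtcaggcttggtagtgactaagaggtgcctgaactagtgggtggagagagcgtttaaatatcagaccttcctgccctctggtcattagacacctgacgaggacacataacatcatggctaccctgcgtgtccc
Ccl17: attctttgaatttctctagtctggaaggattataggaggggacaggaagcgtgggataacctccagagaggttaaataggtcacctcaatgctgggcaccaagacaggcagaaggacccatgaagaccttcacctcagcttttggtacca

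**Figure D2:**
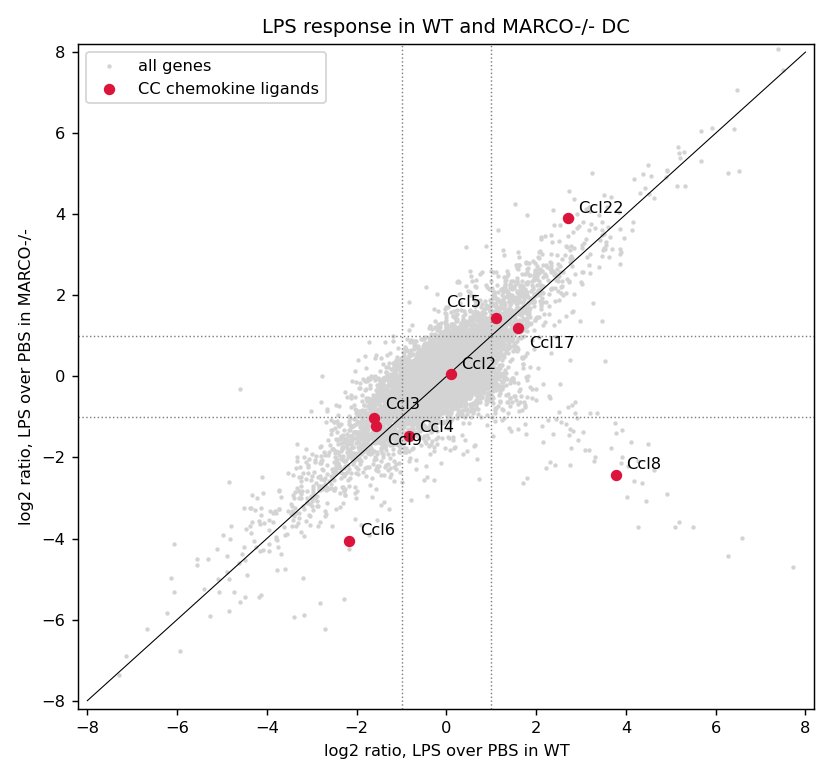
log2 ratio of LPS over PBS in WT (horizontal axis) and in MARCO-/- (vertical axis); grey points are all 17097 genes, red points the 9 CC chemokine ligands, dotted lines mark 2-fold and the solid line marks equal ratios. Ccl22 lies above the line at 2.70 and 3.90, Ccl6 below it at -2.17 and -4.05, and Ccl8 far from it at 3.77 and -2.43.

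Ccl6 and Ccl9 encode chemokines that act through CCR1 and are made by myeloid cells without stimulation. Ccl6 (1417266_PM_at) had 220 in WT PBS, 48.7 in WT LPS, 189 in MARCO-/- PBS and 11.4 in MARCO-/- LPS. The PBS arrays were 1.16-fold apart. LPS values were lower by 4.51-fold in WT (log2 ratio -2.17) and by 16.6-fold in MARCO-/- (-4.05), which left MARCO-/- 4.28-fold below WT with LPS (-2.10). The difference between the LPS responses was -1.88, and 130 of the 17097 genes had a lower one. Ccl6 spanned 19.3-fold over the 4 arrays. The MARCO-/- LPS value was 2.34 times the median of all intensities, and with 8 intensity units added before log2 the LPS ratio in MARCO-/- was -3.34.

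Ccl9 (1417936_PM_at) had 79.2 in WT PBS, 26.9 in WT LPS, 69.8 in MARCO-/- PBS and 30.1 in MARCO-/- LPS. It was lower with LPS by 2.95-fold in WT (log2 ratio -1.56) and by 2.32-fold in MARCO-/- (-1.21). The genotypes were 1.14-fold apart with PBS and 1.12-fold apart with LPS, so the low value of Ccl6 in MARCO-/- LPS had no counterpart in Ccl9. The second probe set of Ccl9 (1448898_PM_at) had 27.5, 8.82, 19.4 and 11.7 in the same order, and with the mean of both probe sets the LPS ratio in MARCO-/- was 1.96-fold.

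Macrophages and monocytes are a known source of both chemokines. With LPS 10 of the 11 macrophage markers were at least 2-fold lower in each genotype, and so were 5 of the 6 measured markers of monocytes and neutrophils. In MARCO-/- over WT with LPS, 4 macrophage markers (C1qa, C1qb, C1qc and Mrc1) were at least 2-fold lower. On the other side 2 (Adgre1 and Slc40a1) were at least 2-fold higher. The C1q genes encode subunits of the same complex, the complement starter C1q. C1qa had 36.8 in WT LPS and 6.06 in MARCO-/- LPS, and Mrc1, the mannose receptor, 12.1 and 2.72. These MARCO-/- values are near or below the background. Adgre1, which encodes F4/80, had 35.6 and 72.2, and the iron exporter gene Slc40a1 had 15.0 and 36.9. Of the 6 markers of monocytes and neutrophils only 1, the neutrophil alarmin S100a9, was past 2-fold between genotypes with LPS. It had 21.3 and 4.90, the latter at the background. Csf1r (14.6 and 20.7) and Lyz2 (468 and 588) were on the higher side in MARCO-/-. The part of macrophages, monocytes and neutrophils in the Ccl6 and Ccl9 values was not tested.

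Ccl9 at chr11:83572917-83578636 and Ccl6 at chr11:83587886-83593087 lie 9.25 kb apart and are both read from the minus strand. The bases around their starts (RefSeq, GRCm38.p6; Ccl6 at chr11:83593038-83593187 and Ccl9 at chr11:83578587-83578736, from 100 bases before the start to 50 after) are shown because these neighbours were both lower with LPS in both genotypes. The capitals mark the 4 runs of at least 9 bases that the 2 promoters share, which are 10, 11, 12 and 13 bases long and of which the 12- and 13-base runs overlap in Ccl9.
Ccl6: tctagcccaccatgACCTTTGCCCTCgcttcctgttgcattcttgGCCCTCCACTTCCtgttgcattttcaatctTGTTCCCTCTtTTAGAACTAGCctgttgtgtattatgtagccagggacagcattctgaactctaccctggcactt
Ccl9: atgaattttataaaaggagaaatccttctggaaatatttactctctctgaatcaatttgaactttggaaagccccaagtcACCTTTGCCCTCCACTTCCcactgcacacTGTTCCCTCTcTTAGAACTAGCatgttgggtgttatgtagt
Each of these runs was found in 4 to 47 of the 32851 promoter windows of the reference, on either strand. Among the 15 pairs of the 6 ligands with a window, 4 other pairs shared a run of 9 or more bases, each a single run of at most 10. Sequences for the other 3 ligands (Ccl2, Ccl4 and Ccl5) were not used here. A match in sequence is a description and says nothing of what binds there.

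The MCP family (monocyte chemoattractant proteins) is represented by Ccl2 and Ccl8. Ccl8 (1419684_PM_at), at chr11:82115185-82116799, encodes MCP-2. It had 9.22 in WT PBS, 126 in WT LPS, 43.6 in MARCO-/- PBS and 8.11 in MARCO-/- LPS. The high arrays were thus WT LPS and MARCO-/- PBS, and the other 2 were within 1.89 times the median of all intensities. LPS over PBS was 13.6-fold higher in WT (log2 ratio 3.77) and 5.38-fold lower in MARCO-/- (-2.43). MARCO-/- over WT was 4.73-fold higher with PBS (2.24) and 15.5-fold lower with LPS (-3.95). Ccl8 was the only ligand past 2-fold in all 4 comparisons. The difference between the LPS responses was -6.20, and 15 of the 17097 genes had a lower one. Of all genes 58 (0.339%) were, like Ccl8, at least 2-fold higher with LPS in WT and at least 2-fold lower in MARCO-/-, and none was the reverse. The low values on 2 of the arrays lie near the background, and with 8 intensity units added before log2 the log2 ratios of LPS over PBS were 2.96 in WT and -1.68 in MARCO-/-, and those of MARCO-/- over WT 1.58 with PBS and -3.05 with LPS, all still past 2-fold.

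Some fibroblast markers moved with Ccl8. Of 8 such genes, 5 (Col1a1, Col3a1, Dcn, Dpt and Lum) were at least 2-fold higher with LPS in WT and 4 of these, all but Lum, at least 2-fold lower in MARCO-/-, where Lum, Pdgfrb, Col1a2 and Pdgfra had log2 ratios between -0.07 and 0.06. In MARCO-/- over WT, 3 were at least 2-fold higher with PBS and 4 at least 2-fold lower with LPS. Their summed intensity was 27.9 in WT PBS, 1091 in WT LPS, 359 in MARCO-/- PBS and 36.4 in MARCO-/- LPS, and 2 of them, Col1a2 and Pdgfra, stayed at or below the median of all intensities on all 4 arrays. Most of the 2 high sums was Col3a1, a fibrillar collagen, which had 4.57, 959, 315 and 12.1 in the same order. Dcn, a matrix proteoglycan, had 4.48, 67.0, 14.8 and 3.71. Col1a1 had 4.15, 29.5, 7.01 and 2.75, Dpt 2.86, 16.9, 7.10 and 3.27, and Lum 3.08, 6.48, 5.18 and 4.94. Several of the 2-fold calls of these genes thus rest on values near the background. Actin genes of muscle, which are on none of the lists and were picked after their values were seen, had ratios of the same signs as Ccl8. The log2 ratios of Acta1, the skeletal muscle actin, were 5.10 and -3.71 for LPS over PBS in WT and MARCO-/-, and 3.76 and -5.05 for MARCO-/- over WT with PBS and LPS. Those of Acta2, the smooth muscle actin, were 4.26, -2.09, 2.63 and -3.72. None of the 11 macrophage markers shared this order. Of these, 10 were at least 2-fold lower with LPS in WT, and Spic was highest in MARCO-/- LPS, with 434. The part of fibroblasts, muscle or any other cell type in the Ccl8 values was not tested.

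**Figure D3:**
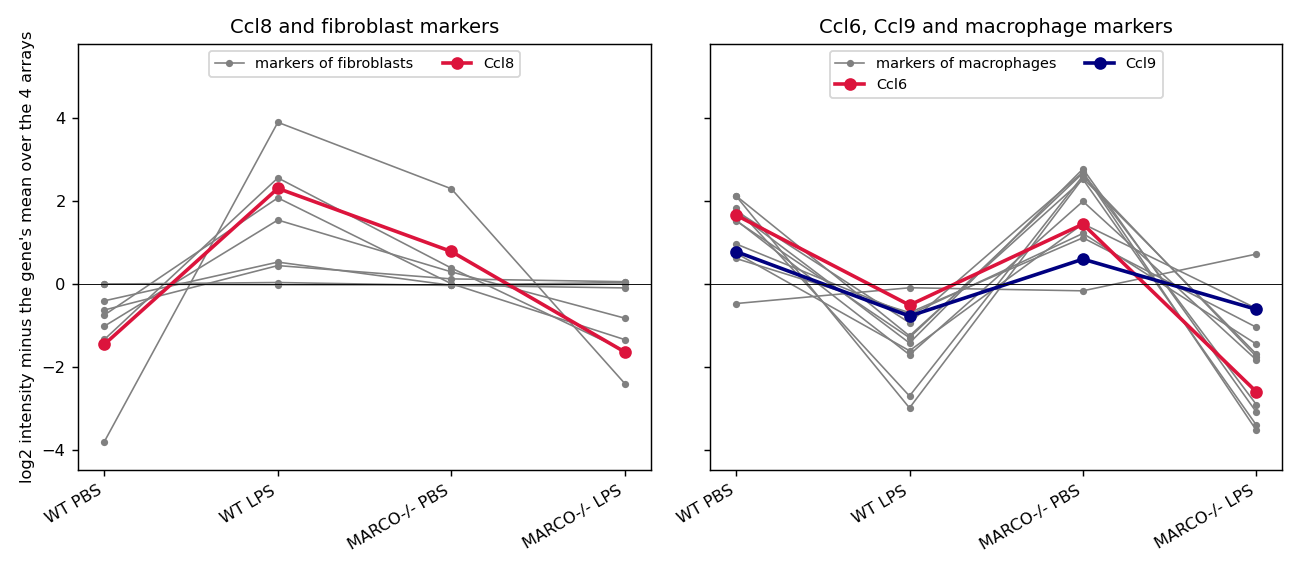
log2 intensity minus the gene's own mean over the 4 arrays for Ccl8 with 8 fibroblast markers (left) and for Ccl6 and Ccl9 with 11 macrophage markers (right); each point is 1 array and lines join the points of a gene. Ccl8 and 5 of the fibroblast markers are highest in WT LPS and past 2-fold above WT PBS. Pdgfrb and Col1a2 are also highest in WT LPS, but under 2-fold above WT PBS. On the right, 10 of the 11 macrophage markers are lower on the LPS arrays than on the PBS arrays of each genotype.

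The bases around the start of Ccl8 (RefSeq, GRCm38.p6, plus strand, chr11:82115085-82115234) are shown because of this reversal, with a TATAAA motif in capitals that begins 32 bases before the start.
Ccl8: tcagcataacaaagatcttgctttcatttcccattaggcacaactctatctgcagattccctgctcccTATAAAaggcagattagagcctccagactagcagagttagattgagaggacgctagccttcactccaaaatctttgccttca
The windows of 300 bases (250 before and 50 after the start) of the 6 ligands were searched on both strands for 4 motifs: the kappaB consensus, the TATA box core TATAAA, the C/EBP core TTGCNNAA and the AP-1 core TGANTCA (which is equal on both strands but for its middle base). Ccl8 held TATAAA, and Ccl9 held TATAAA as well as the AP-1 core and a kappaB consensus that begins 35 bases before the start on the opposite strand. These motifs were present in 8.46% (kappaB), 13.6% (TATA box), 10.8% (C/EBP) and 7.81% (AP-1) of all windows in the reference. None of them was found in the windows of Ccl3, Ccl6, Ccl17 and Ccl22, which says only that these letters are not there.

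Ccl2 (1420380_PM_at), at chr11:82035577-82037452, encodes MCP-1, the main ligand of CCR2 and a common product of activated macrophages and stromal cells. It had 10.9 in WT PBS, 11.7 in WT LPS, 13.1 in MARCO-/- PBS and 13.6 in MARCO-/- LPS. All 4 values lay within 1.24-fold of each other and at 2.25 to 2.79 times the median of all intensities. LPS over PBS was 1.07-fold higher in WT and 1.03-fold higher in MARCO-/-, and the order of the arrays differs by amounts that no replicate allows to be weighed. Ccl8 lies 77.7 kb from Ccl2.

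**Figure D4:**
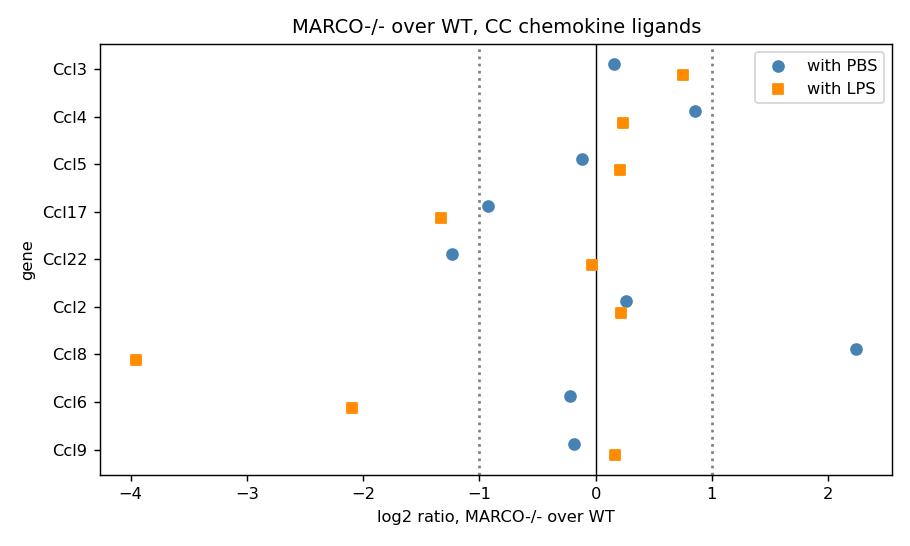
log2 ratio of MARCO-/- over WT for the 9 CC chemokine ligands with PBS (blue circles) and with LPS (orange squares); dotted lines mark 2-fold. Ccl8 lies at 2.24 and -3.95, Ccl22 at -1.24 with PBS, and Ccl6 and Ccl17 at -2.10 and -1.33 with LPS.

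Other genes of the CC chemokine system were read from lists of names. Of 14 other CC ligand genes 11 were measured, and 6 of these stayed at or below the median of all intensities on all 4 arrays. With LPS none was past 2-fold in WT and 1 was lower in MARCO-/-: Ccl24, an eotaxin, had 9.99 with PBS and 4.72 with LPS. Neither comparison between genotypes had any past 2-fold. Ccl7, which encodes MCP-3, was between 2.98 and 3.48, and Ccl12, which encodes MCP-5, had 5.74 in WT PBS, 6.92 in WT LPS, 5.74 in MARCO-/- PBS and 3.64 in MARCO-/- LPS, so neither had the range of Ccl8. Ccl19, a ligand of the migration receptor CCR7, was between 8.84 and 15.4.

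Of 14 receptor genes 11 were measured, and the others were not analysed here. With LPS 2 were at least 2-fold lower in WT (Ccr2 and Ccr9) and 5 in MARCO-/- (Ccr2, Ccr3, Ccr9, Ccrl2 and Ackr2), and none was higher. Ccr2, the receptor of Ccl2 on monocytes, had 127 in WT PBS, 17.7 in WT LPS, 63.5 in MARCO-/- PBS and 9.80 in MARCO-/- LPS, 7.18-fold and 6.48-fold lower with LPS. Ccr1, which binds the products of Ccl3, Ccl5, Ccl6 and Ccl9, had 18.8, 10.6, 13.5 and 6.80 in the same order, under 2-fold in each comparison. With PBS 2 receptors were higher in MARCO-/- than in WT: Ccr3, the eotaxin receptor of eosinophils, with 5.06 and 19.2, and Ackr2, a decoy receptor that clears CC chemokines, with 4.92 and 14.5. None was past 2-fold between genotypes with LPS. Some ratios lay just under the threshold: in MARCO-/-, Ackr4 was 1.996-fold lower with LPS (6.35 and 3.18) and Ccr2 1.999-fold lower with PBS. Ccr4, the receptor of Ccl17 and Ccl22, lay between 4.06 and 4.65, at the level of the background.

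Of 16 genes of the LPS response that are not chemokines 14 were measured, and 4 of these were at least 2-fold higher with LPS in WT and 5 in MARCO-/-, with none lower. Il6, an inflammatory cytokine, had 6.33 in WT PBS and 322 in WT LPS, and 7.37 and 491 in MARCO-/-. Irf7, a factor of the interferon response, was 6.25-fold and 7.99-fold higher, and the NF-kappaB subunit Nfkb2 3.05-fold and 2.63-fold. Tnf, whose product is like Ccl3 and Ccl4 an early response of myeloid cells, had 25.4 and 27.6 in WT and 25.4 and 34.0 in MARCO-/-. None of these genes was past 2-fold between genotypes in either condition.

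**Figure D5:**
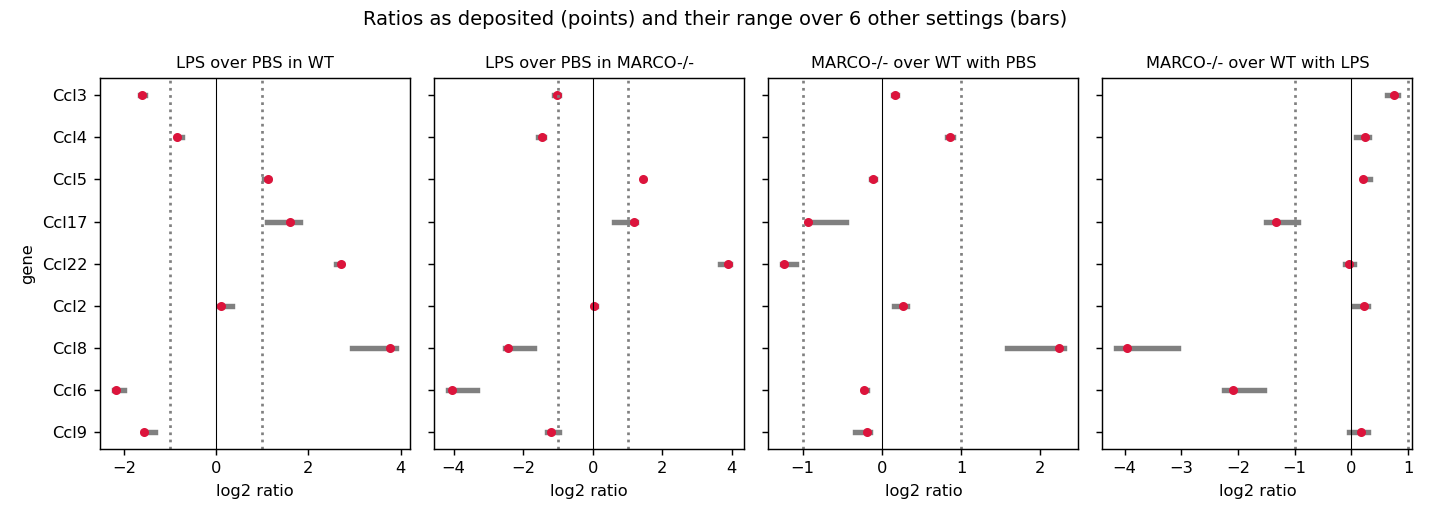
log2 ratios of the 9 CC chemokine ligands in the 4 comparisons, as deposited (red points) and their range over 6 other settings (grey bars: quantile normalization, cyclic loess, centring on medians, the mean of all probe sets, without probe sets ending in x_at, s_at or a_at, and 8 units added); dotted lines mark 2-fold. The ratios of Ccl22 for LPS over PBS stay between 2.60 and 3.95, and the bars that cross 2-fold are those of Ccl3, Ccl9 and Ccl17.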

How the data were processed

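RNA of splenic DC was hybridized to Affymetrix mouse expression arrays, 1 per condition. The deposited values are RMA intensities made by the authors with RMAexpress (background correction, normalization between arrays and 1 value per probe set). They ranged from 1.54 to 7414 with array medians of 4.72 to 4.97, which shows a linear scale; no scanner files were used here, so this scale was read from the values. The number of arrays limits the precision.

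Of 45141 probe sets, 104 controls were left out. Of the remaining 45037, 28898 have exactly 1 gene symbol in GEO's platform annotation, 551 have several and 15588 are not listed. These stand for 17097 genes, each given by its brightest probe set (mean of log2 values over the arrays). log2 ratios were taken with no offset, and 2-fold was the threshold. The groups come from the labels. Promoter sequences and gene positions come from RefSeq (GRCm38.p6). The 2-fold call was tested on simulated data with planted shifts, for LPS over PBS in WT only, and the other steps were not. The planted shifts were larger than the threshold, and the noise was small and set, not estimated from replicates. The simulation thus checks only the code and gives no error rate for these arrays.

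Named were all 9 ligands, members of the other lists past 2-fold or defining a cell type (those with no value in the text are named in the closing section), genes singled out for contrast after their values were seen, and the 3 genes nearest to each ligand in log2 profile. The ligands and lists were chosen with earlier results of these data known. The alternatives were quantile normalization, cyclic loess, median centring, the mean of all probe sets, each probe set counted, no probe sets ending in x_at, s_at or a_at, thresholds of 1.5-fold and 3-fold, a filter at the median of all intensities and 8 units added before log2. Python 3.11.15, numpy 2.4.6, pandas 2.3.3, matplotlib 3.10.9, R 4.3.3 and limma 3.58.1 were used.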

Additional observations from a re-analysis of the deposited data

Results flagged for a closer look

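Ccl8 went in opposite directions with LPS in the genotypes, with a log2 ratio of LPS over PBS of 3.77 in WT and -2.43 in MARCO-/-. The same values seen between genotypes are log2 ratios of MARCO-/- over WT of 2.24 with PBS and -3.95 with LPS.

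The sign of the difference between genotypes also turned for Ccl5, with a log2 ratio of MARCO-/- over WT of -0.11 with PBS and 0.21 with LPS, and for Ccl9, with -0.18 and 0.16. These sizes are far under 2-fold, and for Ccl9 the turn is lost with quantile normalization, where the ratio with LPS was -0.05, and with cyclic loess, where it was -0.01. With 1 array per condition none of these differences was tested.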

How the results depend on the processing

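No replicate could be left out, since each condition has 1 array. Of the counts of ligands past 2-fold, 74 recounts over the alternatives were within 1.5 times the count given, and 6 were not, all of which came from the thresholds. At 3-fold, 1 ligand was higher and 2 were lower for LPS over PBS in MARCO-/-, and 0 were lower for MARCO-/- over WT with PBS. At 1.5-fold, 1 ligand was higher for MARCO-/- over WT with LPS, and 2 were higher and 2 lower with PBS. No ratio past 2-fold reversed. Of the recomputed ratios of single ligands 211 stayed within 1.5 times and 5 moved by over 1.5 times, each with 8 intensity units added before log2: the LPS ratio of Ccl6 in MARCO-/- (-3.34) and all 4 ratios of Ccl8 (2.96 and -1.68 for LPS over PBS in WT and MARCO-/-, 1.58 and -3.05 for MARCO-/- over WT with PBS and LPS). Many of the unchanged counts and ratios could not have moved. No probe set of a ligand ends in x_at, s_at or a_at, 8 of the 9 ligands have a single probe set, and the filter at the median kept all 9. The ratios that crossed 2-fold were those of Ccl3 and Ccl9 for LPS over PBS in MARCO-/- and both of Ccl17 named in the text. The small ratio of Ccl9 for MARCO-/- over WT with LPS ran from -0.05 to 0.29, so its sign is not settled. An added offset shrinks ratios of low intensities by construction.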

Other observations

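The 3 genes whose log2 profile over the 4 arrays, centred on its own mean, lay nearest to that of each ligand were taken from the 10955 genes with a value above the median of all intensities. For Ccl8 they were Igfbp3, which encodes a binding protein of insulin-like growth factors, Col4a1, a basement membrane collagen, and Serpinh1, the collagen chaperone HSP47, at distances of 0.25, 0.32 and 0.43 on the log2 scale. Igfbp3 had 3.55 in WT PBS, 58.4 in WT LPS, 17.8 in MARCO-/- PBS and 3.82 in MARCO-/- LPS. For Ccl6 they were Selenop, a selenium transport protein, Fcgr3, a receptor for IgG, and the growth factor gene Igf1, at 0.53, 0.66 and 0.67. Selenop had 942, 209, 1234 and 64.9 in the same order. For Ccl22 the nearest was Idi1, an enzyme of isoprenoid synthesis, at 0.26, with 94.5, 779, 48.8 and 683. It was followed by Ceacam15 and Bcl2l14. For Ccl9 they were Ctbp2, Gm8783 and Tnfaip3, the NF-kappaB inhibitor A20, at 0.07, with 1128, 367, 957 and 436. For Ccl5 they were Rassf3, Atp2b1 and Psph, the nearest at 0.04. For Ccl3 they were Zfp655, Gba2 and Tspyl4, the nearest at 0.04. For Ccl4 they were Dennd1c, Cltrn and Abcb4. For Ccl2 they were Sfpq, Fblim1 and Marchf10, and for Ccl17 Cacna1s, Prpf31 and Fam136a, the nearest of these at 0.64. Profiles of only 4 points are shared by many genes, and a small distance says nothing of shared function or control.

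The cell type markers past 2-fold were the following, together with those of fibroblasts, NK and T cells and erythroid cells given in the Results. With LPS in both genotypes the lower DC markers were Itgax, H2-Ab1, Cd74 and Ciita, all but the first of the MHC class II pathway, joined in MARCO-/- by H2-Aa, while Zbtb46 was higher in MARCO-/-. The lower macrophage markers in both were Adgre1, Cd163, Vcam1, Slc40a1, C1qa, C1qb, C1qc, Mertk, Cd5l and Mrc1, and those of monocytes and neutrophils were Ccr2, Csf1r, Lyz2, S100a8 and S100a9. Those of NK and T cells were Ncr1, Klrb1c, Gzma, Nkg7 and Cd8a, joined in MARCO-/- by Prf1. Alas2 was lower with LPS in WT and Slc4a1 in both genotypes. In MARCO-/- over WT, C1qb and C1qc were higher with PBS. With LPS, Adgre1 and the iron exporter gene Slc40a1 were higher, and C1qa, C1qb, C1qc, Mrc1 and S100a9 lower. Of the LPS response genes, Irf1 was higher with LPS in both genotypes and Relb in MARCO-/-.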
